A study of Mus musculus with 8 samples.

Results

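The genes described here are 9 components of the exon junction complex and of nonsense-mediated mRNA decay: Magoh, Magohb, Rbm8a, Casc3, Upf1, Upf2, Upf3a, Upf3b and Smg1. They were taken by symbol from a table of 23818 gene symbols, and all 9 were found. The set was selected on the total RNA values of Magohb, whose low level in knockout cells was known from these libraries, and filled with genes of the same pathway. That change is therefore given as a description with no test.

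The exon junction complex is a set of proteins that splicing leaves on the mRNA just upstream of each joined pair of exons, where it marks the message as spliced and follows it into the cytoplasm. Its core is the helicase Eif4a3 clamped on the RNA by a dimer of Rbm8a (Y14) with Magoh or its paralog Magohb, together with Casc3. A ribosome that stops at a premature stop codon leaves such a complex in place downstream, and Upf3a or Upf3b and Upf2 link it to the helicase Upf1, which the kinase Smg1 phosphorylates to start decay of the message. In mouse embryonic stem cells this surveillance has been linked to the exit from pluripotency.

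The cells were J1 mouse embryonic stem cells in 2i medium with LIF, either a Mettl6 knockout labelled G6 (KO) or wild type (WT). METTL6 is a methyltransferase that places m3C on certain tRNAs, and all cells of both genotypes had received cycloheximide, which arrests elongating ribosomes, for 10 min before lysis. Each genotype gave 2 total RNA libraries and 2 ribosome footprint libraries (RNA of 26 to 32 nt from 80S ribosomes after RNase A and T1), 8 in all, and the series' design text calls the replicates biological. All KO libraries carry the same designation, G6, so effects of the Mettl6 deletion and of that line's own history cannot be told apart. A suffix in the names of the WT total RNA samples is missing from those of the KO samples.

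Values are CPM, which set each gene's reads against the total of its library, and the depth read from the step between low values was 1301531 to 2960255 reads a library. Mettl6 total RNA stood at 2.30 and 0 CPM in KO libraries, against 25.6 and 27.1 CPM in WT libraries. Its footprints did not follow the labels, at 5.33 and 4.36 CPM in KO and 3.38 and 6.59 CPM in WT. All 6 stem cell markers were present in each library (93 to 1309 CPM per gene), and they summed to 2449 and 2655 CPM in KO and 3286 and 3472 CPM in WT total RNA, groups that do not overlap. The lower KO sum lay in Nanog (740 and 736 CPM, against 1309 and 1211 CPM in WT) and Zfp42 (569 and 652 CPM, against 896 and 920 CPM). Sox2 was higher in KO (292 and 320 CPM, against 268 and 285 CPM), and Pou5f1, Klf4 and Esrrb overlapped. The 5 endoderm markers summed to 19.7 and 20.0 CPM in KO and 5.62 and 11.8 CPM in WT total RNA, and the 5 fibroblast markers, of which Col3a1 was at 0 in every library, to 5.25 and 18.4 CPM in KO and 8.17 and 10.3 CPM in WT. Of the endoderm sums, Dab2 made up 8.45 and 11.8 CPM in KO and 5.41 and 0.51 CPM in WT. Pdgfra made up 5.38 and 3.94 CPM in KO and 2.46 and 0.51 CPM in WT. Gata4 and Gata6 overlapped, and Sox17, with 1 and 0 reads in KO and 2 and 2 in WT, was too low to give a direction. The part of these differences in the results was not tested, and in bulk samples fewer cells of a type and less RNA per cell cannot be told apart. Rn45s, the rRNA precursor, took 3.38% and 5.77% of KO and 2.49% and 6.46% of WT total RNA, and 38.3% and 42.6% of KO and 41.3% and 46.3% of WT footprints. Genes of chromosomes 6, 8 and 11, which carry Magohb, Upf1, Upf3a and Casc3, were lower as a body in KO total RNA (median log2 changes of −0.41, −0.39 and −0.44, against −0.0333 to 0.0843 on the other chromosomes).

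The first part of the coding sequences of the Magoh paralogs (bases 1 to 300 of Magohb and 1 to 294 of Magoh, aligned) is shown because the contrast between them carries the main observation and because short reads must tell them apart. Both are read from GENCODE vM21 transcripts (GRCm38, the assembly of mm10), with capitals at bases where the aligned sequences differ or where 1 of them has bases that the other lacks.
Magohb: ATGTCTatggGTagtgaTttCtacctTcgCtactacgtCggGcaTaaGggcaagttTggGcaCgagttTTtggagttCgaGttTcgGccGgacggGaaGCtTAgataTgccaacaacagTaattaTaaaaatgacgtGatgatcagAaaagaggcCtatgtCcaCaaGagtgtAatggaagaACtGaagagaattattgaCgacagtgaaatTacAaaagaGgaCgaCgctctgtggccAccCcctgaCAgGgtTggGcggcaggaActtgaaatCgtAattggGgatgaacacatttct
Magoh: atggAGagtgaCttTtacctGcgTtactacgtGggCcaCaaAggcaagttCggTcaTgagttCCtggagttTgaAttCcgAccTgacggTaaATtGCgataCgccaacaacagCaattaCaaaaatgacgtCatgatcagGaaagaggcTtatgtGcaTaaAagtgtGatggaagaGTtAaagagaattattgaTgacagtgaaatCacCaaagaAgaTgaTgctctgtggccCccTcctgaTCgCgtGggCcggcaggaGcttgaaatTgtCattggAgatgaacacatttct
Magohb (chromosome 6, 131284388 to 131293244, minus strand, 5 exons, 148 codons) and Magoh (chromosome 4, 107879755 to 107887424, plus strand, 5 exons, 146 codons) were identical at 357 of 447 aligned columns (79.9%) over the whole coding sequence. The longest run without a difference was 17 bases, shorter than a footprint, and none of the 420 words of 28 bases in the Magohb coding sequence or the 414 in that of Magoh occurred in a transcript of another gene.

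In total RNA, Magohb was nearly gone from knockout cells while its paralog remained. Magohb stood at 1.54 and 0 CPM in KO, against 14.3 and 17.9 CPM in WT, which is about 2 and 0 reads in KO and 29 and 35 reads in WT. The groups lie far apart, and the difference was −3.41 on the log2(CPM + 1) scale (SE 0.632). Over pooled reads the rate was 22.7-fold lower in KO, with an interval of 6.02 to 191 that covers counting error only and describes these reads without testing the genotypes. Magohb passed the filter on low values, a mean of 1 CPM or more, through its WT libraries alone.

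The 3 tested genes on each side of Magohb on chromosome 6 had log2 changes from −1.15 to 0.02 in total RNA, with a median of −0.69. They span bases 128483567 to 134438724, and most lie far from Magohb. Gabarapl1, the nearest at lower coordinates, ends at base 129542331, against a start of 131284388 for Magohb. The value of 0.02 is that of Klrb1c, which averaged only 1.04 CPM in KO and 1.48 CPM in WT. The nearest at higher coordinates, Ybx3, a cold shock domain protein that binds RNA, averaged 207 CPM in KO and 337 CPM in WT (log2 change −0.70, limma-trend adjusted p = 0.00156). Less the median of chromosome 6, the Magohb difference was −3.01.

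Footprints of Magohb gave another picture, at 2.05 and 6.54 CPM in KO and 3.72 and 4.71 CPM in WT. These are about 5 and 12 reads in KO and 11 and 10 reads in WT, and the KO values lie on both sides of the WT ones. The log2 change was −0.11 with a 95% interval of −0.98 to 0.75 (limma-trend adjusted p = 0.895), and a change within that interval was not detectable at this depth. The direction of this small change was positive, 0.32, once the chromosome median was removed. From the low WT footprint level, even complete absence in KO could not give a log2(CPM + 1) change as large as that in total RNA. The interval is therefore not set against the total RNA change. GENCODE annotates 7 transcripts of Magohb, 3 of them as targets of nonsense-mediated decay, and the gene-level values do not separate these from the 2 protein-coding ones. Mettl6, the deleted gene, likewise had footprints at a similar level in both genotypes (5.33 and 4.36 CPM in KO, 3.38 and 6.59 CPM in WT). Its total RNA was at 2.30 and 0 CPM in KO. What footprint reads at this level represent was not tested.

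**Figure D1:**
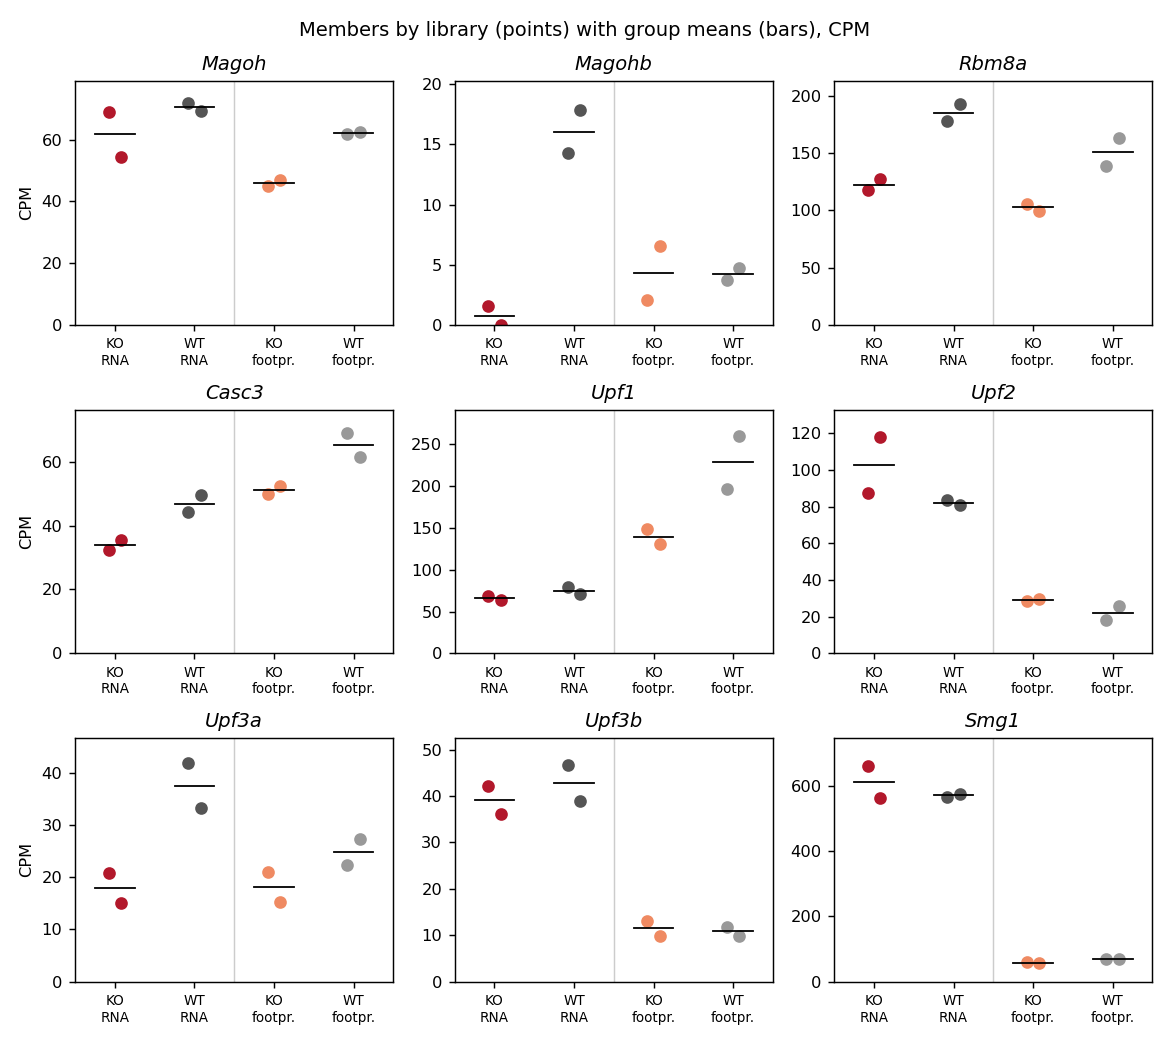
CPM of each member by library, with KO left of WT for total RNA and again for footprints; points are the 2 libraries of a group and bars their mean, and each panel has its own axis from 0. Magohb total RNA sits at 1.54 and 0 CPM in KO and at 14.3 and 17.9 CPM in WT, whereas its footprints overlap.

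Magoh, the more abundant paralog, had 69.1 and 54.5 CPM in KO and 71.9 and 69.5 CPM in WT total RNA. Both KO values lie below both WT values, the first by less than 1 CPM, and the log2 change of −0.20 (95% interval −0.63 to 0.23) was not called (limma-trend adjusted p = 0.568). Its footprints stood at 45.1 and 46.8 CPM in KO, against 61.8 and 62.6 CPM in WT. The footprint groups were narrow and did not overlap, yet the log2 change of −0.43 (SE 0.194) missed the threshold (limma-trend adjusted p = 0.121). It passed with Rn45s taken out of the library totals (log2 change −0.52, limma-trend adjusted p = 0.0321).

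As a share of the pair's reads, Magohb made up 2.17% of total RNA in KO replicate 1, with an exact 95% binomial interval of 0.264% to 7.63%. In KO replicate 2 it had 0 of 83 reads, which allows a share of up to 3.61% at a limit of 3 reads and of 4.35% at the upper end of the exact interval. In WT total RNA the shares were 16.6% and 20.5%, with intervals of 11.4% to 22.9% and 14.7% to 27.3%. Both WT shares were higher than both KO shares. In footprints the shares were 4.35% and 12.2% in KO and 5.67% and 6.99% in WT, and all 4 intervals overlap. The summed CPM of the pair was 70.7 and 54.5 in KO and 86.1 and 87.3 in WT total RNA, and 47.2 and 53.4 in KO and 65.5 and 67.3 in WT footprints. The sum was thus lower in both KO libraries than in both WT ones in each kind of library. Of all tested genes, 29.8% in total RNA and 30.7% in footprints also had both KO values below both WT values. The total RNA sum holds the Magohb values that chose the set, so nothing is read from its difference.

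**Figure D2:**
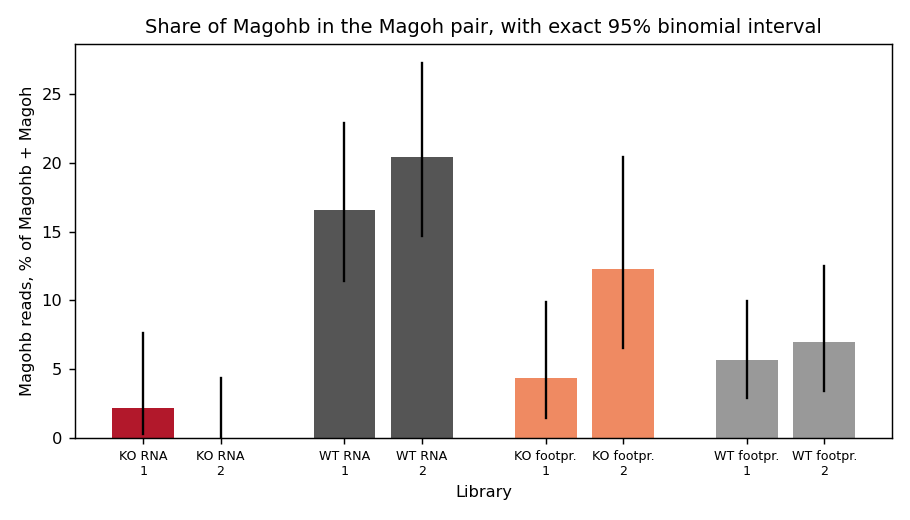
Share of Magohb in the summed Magohb and Magoh reads of each library, in percent, with KO left of WT; lines are exact 95% binomial intervals, which cover counting error only. The KO total RNA bars lie at 2.17% and 0%, below the WT bars of 16.6% and 20.5%, and the footprint intervals overlap.

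The genes whose log2(CPM + 1) was most like that of Magohb over the 8 libraries were Mettl6 itself (Pearson r = 0.949), Tulp2 (0.948), Mavs, the mitochondrial adaptor of antiviral signalling (0.923), Dhtkd1 (0.921) and Aimp1, a scaffold of the tRNA synthetase complex (0.910), out of 9971 genes averaging 5 CPM or more. The libraries share genotype and kind, so r is a description. Tulp2 stood at 2.30 and 1.31 CPM in KO and 6.89 and 11.2 CPM in WT total RNA, and at 2.87 and 4.90 CPM in KO and 4.38 and 7.06 CPM in WT footprints. None of these genes lies on chromosome 6.

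Rbm8a, the RNA-binding partner of Magoh and Magohb in the dimer, was lower in KO in both kinds of library. Its total RNA was 118 and 127 CPM in KO, against 178 and 193 CPM in WT, and its footprints were 106 and 99.3 CPM in KO, against 139 and 163 CPM in WT. Neither comparison had overlapping groups. The log2 change was −0.59 (SE 0.151, limma-trend adjusted p = 0.0143) in total RNA and −0.55 (SE 0.173, limma-trend adjusted p = 0.0209) in footprints, and removal of the median of chromosome 3 left it at −0.65 and −0.59. In a fit of the 7 other libraries the total RNA call was lost without WT replicate 1 or 2 or KO replicate 1 (adjusted p = 0.0611, 0.121 and 0.0782), and the footprint call without WT replicate 2 or KO replicate 1 or 2 (adjusted p = 0.161, 0.0671 and 0.156). Rbm8a shares 54.6% of the 28-base words of its coding sequence with other genes, chiefly Rbm8a2, which has no row in the table, so reads of Rbm8a and Rbm8a2 cannot be told apart there.

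Casc3, the remaining core member of the list, lay close to the median of its chromosome. It had 32.3 and 35.4 CPM in KO and 44.3 and 49.5 CPM in WT total RNA, and 50.04 and 52.3 CPM in KO and 68.9 and 61.7 CPM in WT footprints. KO lay below WT without overlap in both, and neither change was called, at −0.46 in total RNA (limma-trend adjusted p = 0.219) and −0.34 in footprints (limma-trend adjusted p = 0.223). The medians of chromosome 11 were −0.44 and −0.45, and less these medians the Casc3 changes were −0.021 and 0.11.

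Among the Upf proteins, Upf1, the helicase at the centre of decay, had fewer footprints in KO, and its RNA change was not called. Its total RNA was 68.4 and 63.6 CPM in KO and 79.7 and 70.5 CPM in WT (log2 change −0.18, 95% interval −0.59 to 0.22, limma-trend adjusted p = 0.586). Its footprints were 148 and 130 CPM in KO, against 197 and 260 CPM in WT, with the WT values further apart than the KO ones. The footprint change of −0.70 (SE 0.172) passed the test (limma-trend adjusted p = 0.0032). In a fit of the 7 other libraries it was lost without WT replicate 2 (adjusted p = 0.137) or KO replicate 2 (adjusted p = 0.116), and with the median of chromosome 8 (−0.39) removed (log2 change −0.31, adjusted p = 0.246). The total RNA change turned to 0.21 under that removal. The footprint and total RNA changes were not shown to differ (difference −0.52, limma-trend adjusted p = 0.562).

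Upf2, which bridges Upf1 and the Upf3 proteins, was the member with the largest positive changes in total RNA and in footprints. It had 87.6 and 118 CPM in KO and 83.7 and 80.7 CPM in WT total RNA, and 28.3 and 29.4 CPM in KO and 17.9 and 25.9 CPM in WT footprints. Both KO values exceeded both WT values in each kind of library, but neither log2 change was called, at 0.30 (limma-trend adjusted p = 0.311) and 0.41 (limma-trend adjusted p = 0.252).

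The Upf3 paralogs, which contact the exon junction complex directly, had unlike values in total RNA. Upf3a, the weaker activator of decay, had 20.7 and 15.1 CPM in KO, against 41.8 and 33.2 CPM in WT, a change of −1.03 (SE 0.300, limma-trend adjusted p = 0.0289). Upf3b, encoded on the X chromosome, had 42.3 and 36.1 CPM in KO and 46.8 and 38.8 CPM in WT, with overlapping groups (log2 change −0.12, 95% interval −0.63 to 0.38, limma-trend adjusted p = 0.793). The difference between the paralogs was not tested. The Upf3a call was lost with the median of chromosome 8 removed (log2 change −0.64, adjusted p = 0.164), with no filter on low values (adjusted p = 0.0827), and in a fit of the 7 other libraries without WT replicate 1 (adjusted p = 0.144) or KO replicate 2 (adjusted p = 0.0698). In footprints Upf3a stood at 20.9 and 15.2 CPM in KO and 22.3 and 27.3 CPM in WT (log2 change −0.45, adjusted p = 0.226 by limma-trend), and Upf3b at 13.1 and 9.81 CPM in KO and 11.8 and 9.88 CPM in WT (0.06, adjusted p = 0.917).

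Smg1, the large kinase that phosphorylates Upf1, had 662 and 562 CPM in KO and 566 and 577 CPM in WT total RNA. The groups overlap, and the log2 change of 0.09 had a 95% interval of −0.16 to 0.34 (limma-trend adjusted p = 0.664). Its footprints were 59.4 and 57.7 CPM in KO and 69.5 and 68.2 CPM in WT, close within each group and apart between them (log2 change −0.23, limma-trend adjusted p = 0.431).

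**Figure D3:**
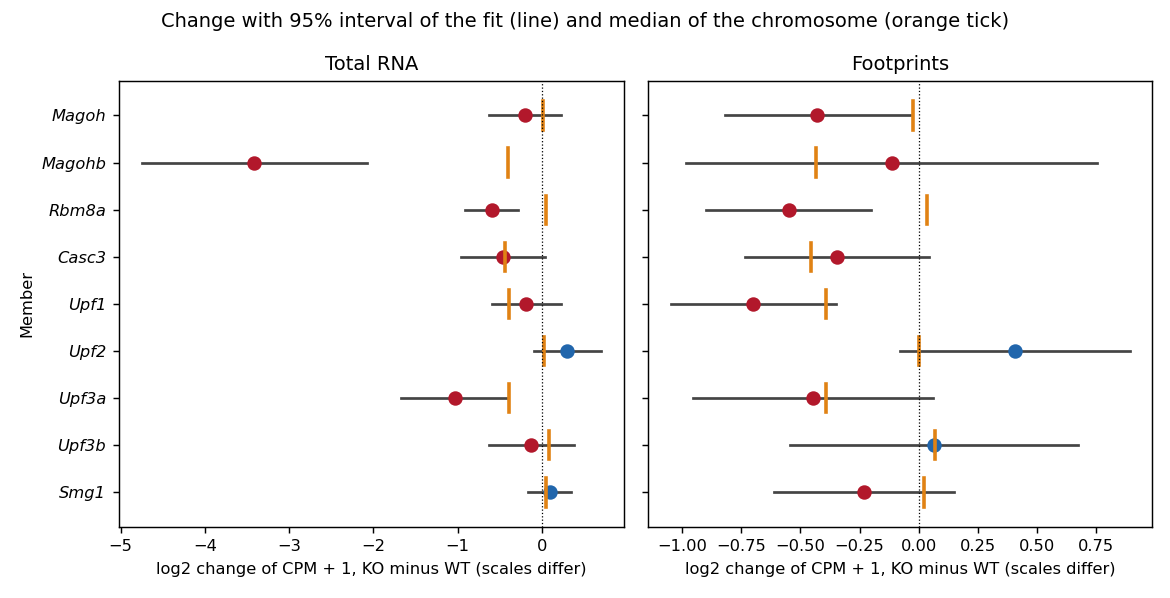
Log2 change of CPM + 1, KO minus WT, of each member in total RNA and in footprints; points are estimates, lines 95% intervals of the limma-trend fit and orange ticks the median change of the member's chromosome, with a scale of its own in each panel. Magohb lies at −3.41 in total RNA and −0.11 in footprints, and Casc3 lies near its chromosome's median in both; the total RNA interval of Magohb is drawn as a description, not a test.

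Magohb aside, 2 of the other 8 members (Rbm8a and Upf3a) were called lower in total RNA (adjusted p under 0.05) and 0 higher, where 7.03% of 13222 tested genes were lower and 6.57% higher. As the list was drawn up with that contrast known, nothing is read from this count. In footprints, which come from other libraries, 2 of 9 (Rbm8a and Upf1) were lower and 0 higher, where 8.28% of 11624 genes were lower and 10.7% higher. Both KO libraries lay below both WT ones for 6 of 9 members in total RNA and 6 of 9 in footprints, beside 29.8% and 30.7% of all tested genes. The total RNA count includes Magohb, whose values there chose the set, so nothing is read from it either. The median log2 change of the members was −0.20 in total RNA and −0.34 in footprints, beside −0.037 and −0.053 over all tested genes. For the 5 members off chromosomes 6, 8 and 11 the medians were −0.12 and −0.23, and for the 4 on them −0.75 and −0.39. The total RNA medians of −0.20 and −0.75 include Magohb and are descriptions only.

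Translational efficiency, the KO change of footprints less that of total RNA, was called for 0 of the 8 members other than Magohb by limma-trend (0 also at an unadjusted p below 0.05), where 0.0616% of 11364 genes were called. Magohb had the largest value among the members, 3.30 (SE 0.767), which is given without a test since its total RNA was known, and which rests on 2 and 0 total RNA reads in KO. Upf1 was at −0.52 (95% interval −1.04 to 0.0017) and Upf3a at 0.59 (−0.22 to 1.39). The other 6 lay between −0.32 (Smg1) and 0.19 (Upf3b).

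Within a genotype the members differed widely in footprints per RNA. The mean log2 ratio of footprint to total RNA (CPM + 1, same-numbered libraries) was 1.06 in KO and 1.58 in WT for Upf1, which placed it at percentile 95.4 and 98.6 of all tested genes. For Casc3 it was 0.58 in KO and 0.47 in WT. Smg1 was at the other end, at −3.36 in KO and −3.03 in WT (percentile 3.02 and 4.14). Upf2 (−1.78 and −1.88) and Upf3b (−1.70 and −1.88) also had ratios below the median of all genes, which was −0.79 in KO and −0.87 in WT. In WT cells Magohb was at −1.71 and Magoh at −0.18, and in KO cells Magohb was at 1.59 and Magoh at −0.41. The KO libraries held 2 and 0 total RNA reads of Magohb, and same-numbered pairs gave ratios of 0.27 and 2.91. Equal numbers were not shown to pair libraries, as deviations of the 2 kinds correlated at 0.013 in KO and 0.057 in WT. The spread of single-pair ratios thus depends on the pairing, and their mean does not. All these ratios are of library shares, not of ribosomes per molecule.

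**Figure D4:**
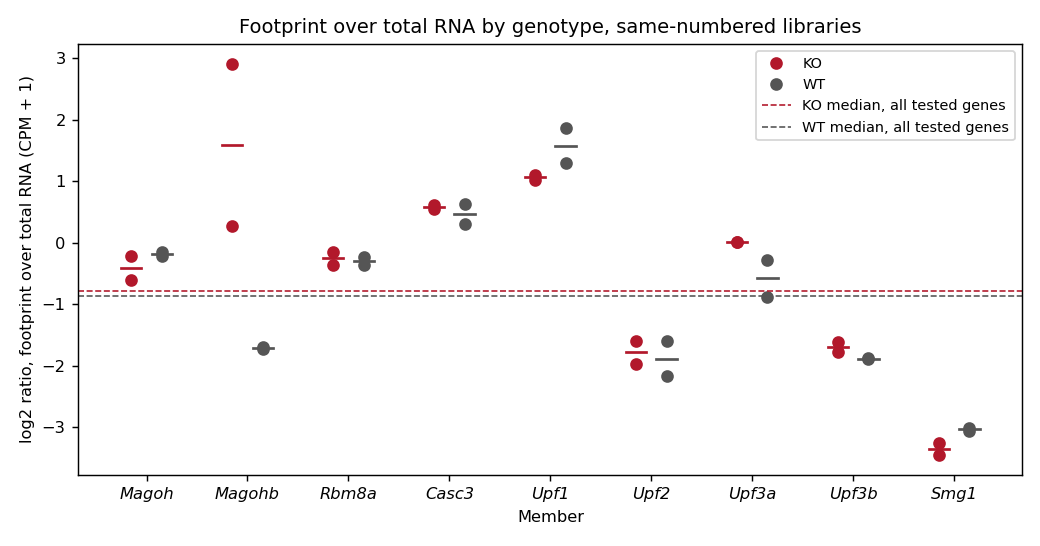
Log2 ratio of footprint to total RNA (CPM + 1) for each member, with KO left of WT; points are same-numbered library pairs, short bars their mean and dashed lines the median of all tested genes in each genotype. Upf1 is highest in WT at 1.58 and Smg1 lowest in both genotypes, and the KO points of Magohb lie at 0.27 and 2.91. Equal numbers were not shown to pair libraries, so the spread between the points of a gene depends on the pairing.

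On a scale per length (CPM per kb of the main GENCODE transcript), the dimer partners led in total RNA, with Magoh at 89.3 in KO and 102 in WT and Rbm8a at 47.0 in KO and 71.2 in WT. Smg1 came next, at 39.3 in KO and 36.7 in WT. The other members lay at 19.9 (Upf2) or below in KO, with Magohb the lowest at 2.00 and 0 in its 2 libraries. In WT they lay between 11.8 (Casc3) and 21.0 (Magohb), where Magohb at 18.6 and 23.3 did not separate from Upf3a at 20.3 and 16.1 or from Upf3b at 20.0 and 16.6. Per kb of coding sequence, footprints were highest for Rbm8a (195 in KO and 288 in WT), then Magoh (104 and 141) and Upf1 (41.3 and 67.7). Magohb stood at 4.59 and 14.6 in KO and 8.31 and 10.5 in WT, so its place in KO differed by library, from the lowest of the 9 in replicate 1 to above Upf3a (12.0) in replicate 2.

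Of 10 other exon junction and cap-binding genes tested in total RNA, 4 were lower and 0 higher (median log2 change −0.38), beside 7.03% and 6.57% of all tested genes. The count of 4 fell to 1 with the chromosome median removed or with no filter on low values. This list and those that follow were drawn up with earlier results of these data known, so their counts are descriptions only. Eif4a3, the helicase core of the complex on chromosome 11, had 81.9 and 104 CPM in KO, against 183 and 137 CPM in WT total RNA (log2 change −0.77, limma-trend adjusted p = 0.00932). Its footprints were 136 and 113 CPM in KO, against 163 and 200 CPM in WT (−0.54, adjusted p = 0.0236). With the median of chromosome 11 removed both calls were lost (adjusted p = 0.254 and 0.788), and with no filter on low values that of total RNA (adjusted p = 0.0597). Alyref, an mRNA export adaptor on the same chromosome, was lower in total RNA, at 93.7 and 90.1 CPM in KO and 161 and 184 CPM in WT (−0.90, adjusted p = 0.00117, and 0.0676 with the chromosome median removed). Rnps1, a peripheral component, and Ncbp2, the cap-binding subunit, were the other calls (−0.51 and −0.80, adjusted p = 0.049 and 0.0488), which 6 and 5 of 9 alternative settings removed. In footprints 1 of 10 fell (Eif4a3) and 1 rose, Ncbp1, the large cap-binding subunit, with 52.9 and 42.5 CPM in KO and 27.4 and 34.4 CPM in WT (0.61, adjusted p = 0.0391), beside 8.28% of all genes lower and 10.7% higher (median over the list −0.21). The Ncbp1 call was lost with a pseudocount of 0.1 (adjusted p = 0.0519), and in total RNA Ncbp1 had a change of the opposite sign that was not called (−0.41, adjusted p = 0.133).

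Of 16 tested decay factors outside the member list, 1 was lower and 0 higher in total RNA (median 0.0027), and 1 was lower and 1 higher in footprints (median −0.044). As a share of the list these counts lie near or below those of all tested genes, of which 7.03% were lower and 6.57% higher in total RNA and 8.28% and 10.7% in footprints. The lower one was Ruvbl1, an AAA ATPase that associates with the Smg1 kinase complex, on chromosome 6. It had 53.8 and 91.2 CPM in KO and 122 and 130 CPM in WT total RNA (−0.83, limma-trend adjusted p = 0.0157), and it was no longer called with the chromosome median removed (adjusted p = 0.216) or with no filter on low values (adjusted p = 0.0941). Its footprints were 88.2 and 57.7 CPM in KO, against 88.5 and 126 CPM in WT (−0.56, limma-trend adjusted p = 0.0445), and that call was lost in 5 of 9 settings. The higher one was Nbas, a factor of retrograde transport and of decay at the endoplasmic reticulum, with 33.6 and 36.0 CPM in KO and 16.8 and 23.1 CPM in WT footprints (0.79, adjusted p = 0.0141). Ruvbl2, the partner of Ruvbl1, was not called (−0.30 in total RNA and 0.31 in footprints), nor was Gspt1, the release factor eRF3a (−0.16 and −0.31). Smg5, an adaptor of phosphorylated Upf1, had a total RNA change of −0.0021, and Smg6, the endonuclease, of −0.077.

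Of 15 tested transcripts reported as decay targets, 2 were higher and 0 lower in total RNA, with a median of 0.06, where 6.57% of all genes were higher and 7.03% lower. Of 14 tested in footprints 2 were higher and 0 lower, with a median of −0.16, where 10.7% of all genes were higher and 8.28% lower. As a share of the list, the footprint count of higher genes lies near that of all genes. Gas5, a snoRNA host RNA that decays during translation, had 291 and 303 CPM in KO and 190 and 184 CPM in WT total RNA (0.66, limma-trend adjusted p = 0.00295). Its footprints were 13.1 and 18.5 CPM in KO, against 4.73 and 4.21 CPM in WT (1.60, adjusted p = 0.000427). Snhg12, also a snoRNA host, rose in total RNA to 43.0 and 70.9 CPM in KO, against 29.5 and 23.5 CPM in WT (1.04, adjusted p = 0.0176, and 0.0811 with no filter on low values). Tbl2, a protein of the endoplasmic reticulum, rose in footprints to 35.3 and 31.6 CPM in KO, against 21.3 and 20.7 CPM in WT (0.64, adjusted p = 0.0424, and 0.0529 without Rn45s in the library totals). Eif4a2, a paralog of the core helicase, had −0.14 in total RNA and −0.39 in footprints (adjusted p = 0.48 and 0.114), and the 3 SR protein genes Srsf2, Srsf3 and Srsf7 had total RNA changes of 0.06, −0.15 and 0.16, none of them called. Translational efficiency was called for 0 genes of these 3 lists by limma-trend, with 2, 1 and 1 genes at an unadjusted p below 0.05. With 1 library left out in a fit of the other 7, Alyref in total RNA and Gas5 in footprints passed in all 4 fits. The Gas5 call in total RNA was lost whichever library was left out, at log2 changes of 0.63 to 0.69. That of Snhg12 was lost in most of these fits, at 0.69 to 1.39, and each other call of these 3 lists was lost in at least 1.

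**Figure D5:**
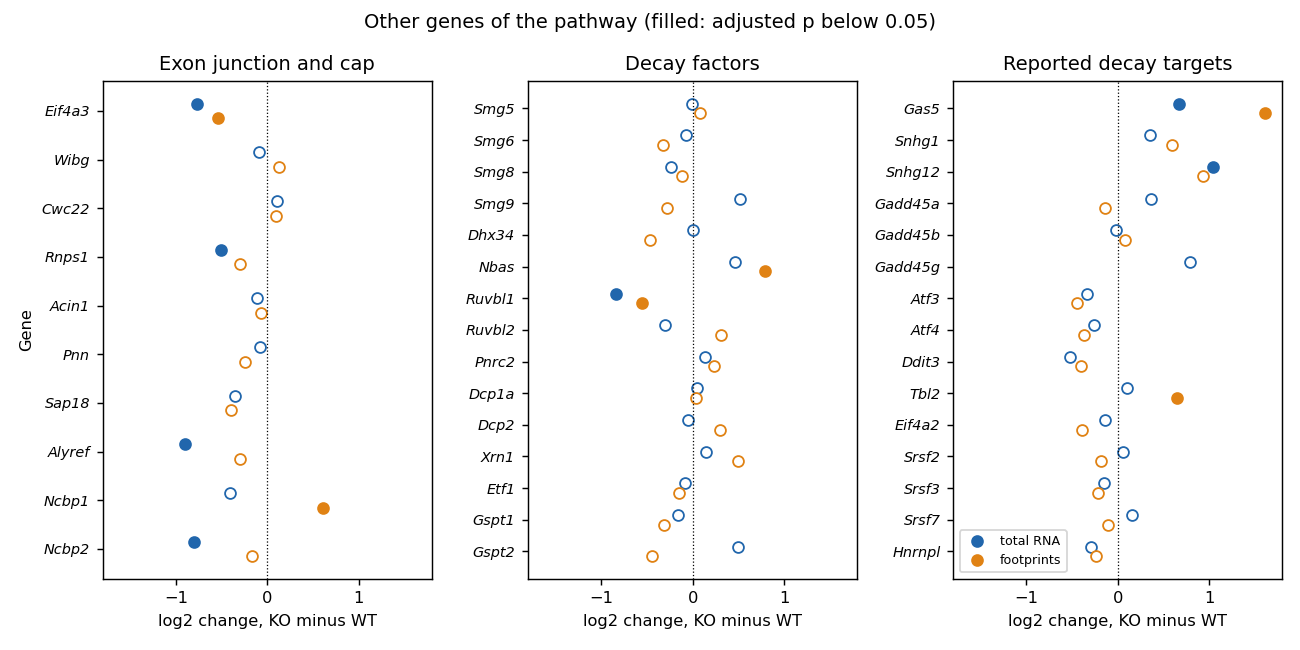
Log2 change of CPM + 1, KO minus WT, of the other genes of the pathway in total RNA (blue) and footprints (orange); filled points passed an adjusted p of 0.05 over all tested genes. The filled points of the exon junction and cap list in total RNA all lie left of 0, and Gas5 lies furthest right, at 1.60 in footprints.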

How the data were processed

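Total RNA and ribosome footprints were measured in 8 libraries, and groups and replicate numbers were taken from the library titles. The submitters' processing notes name CASAVA 1.8.2, Bowtie2, RSEM and the build mm10, without settings. The authors deposited CPM values per gene symbol.

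On the step of the smallest values, 35 of 36 member values in total RNA and 21 of 36 in footprints were whole reads within 0.01 read, but over all genes above 0 only 65.7% to 90.5% were, so the CPM test was used. Values were taken to log2(CPM + 1), genes averaging 1 CPM or more in each kind of library fitted were kept, and KO was compared with WT by limma-trend (limma 3.58.1, R 4.3.3) with Benjamini-Hochberg adjustment over all tested genes and a threshold of 0.05. The fits of 4 libraries had 2 residual degrees of freedom, and that of translational efficiency, the interaction over 8 libraries, had 4. With 2 libraries a group p-values rest on spread shared across genes and measure the spread between these libraries. Intervals of counts cover counting error only, as reads carry no molecular identifiers.

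Members and lists were chosen with earlier results of these data known. All 9 members are named, with up to 4 genes of each list by smallest p, Eif4a3, and the 5 genes most correlated with Magohb; Ncbp1, Smg5, Smg6 and the Srsf genes were added after their values were seen. The values of 1 decay factor are not reported here, though the counts and medians of its list include it. Zfas1 has no row, and Pym1 is listed as Wibg. Chromosomes were looked up in RefSeq (GRCm38.p6, 22527 symbols matched), and positions, lengths and sequences from GENCODE vM21. The tests were checked on simulated data. Alternatives changed the filter, pseudocount, scaling, block, fit and libraries.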

Additional observations from a re-analysis of the deposited data

How the results depend on the processing

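Among members, the total RNA count of 3, which includes Magohb and is no test of it, was 2 to 3 under the alternatives that keep all 4 libraries, and 0 to 2 with a library left out, where the fit of 3 has 1 residual degree of freedom. The footprint count of 2 was 1 with the chromosome median removed, 3 without Rn45s in the total, 2 under the other settings of filter, pseudocount, scaling and fit, and 0 to 2 with a library left out. For translational efficiency it was 0 in each setting that keeps all 8 libraries and 0 to 1 with a library left out, the 1 being Magohb without KO total RNA replicate 1, which leaves the KO library with 0 reads and is not read as a test. Replicate numbers were not shown to pair libraries: deviations of same-numbered KO and WT libraries correlated over 11364 genes at −0.0018 in total RNA and −0.027 in footprints. With the replicate number as a block, the footprint count was 1, with Rbm8a lost (adjusted p = 0.0698), and that of total RNA 3. The block left 0 of the exon junction and cap list called in footprints in place of 2, and 1 of the decay factors and 1 of the targets in place of 2 each.

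Signs turned, in results that were not called, for Upf1 total RNA (0.21) and Magohb, Casc3, Upf3b and Alyref footprints (0.32, 0.11, −0.0059 and 0.15) with the chromosome median removed, which by construction subtracts what a chromosome shares, and for Upf3b footprints without Rn45s (−0.014). In translational efficiency Rbm8a turned to −0.027 under quantile normalization, −0.042 without Rn45s and −0.021 with the chromosome median removed, and Upf2 to −0.016 under the last. With a library left out, log2 changes that turned ran from −0.25 to 0.0084 (Upf3b total RNA), −0.025 to 0.21 (Smg1 total RNA), −0.022 to 0.22 (Tbl2 total RNA, −0.0099 without WT replicate 2), −0.30 to 0.025 (Eif4a2 total RNA), −0.77 to 0.54 (Magohb footprints, 0.024 without WT replicate 2), −0.13 to 0.26 (Upf3b footprints, −0.054 without WT replicate 2), −0.38 to 0.043 (Ncbp2 footprints), and in translational efficiency −0.071 to 0.16 (Rbm8a), −0.15 to 0.36 (Upf2) and −0.0058 to 0.38 (Upf3b). The Magohb total RNA change was −5.31 with a pseudocount of 0.1 and −3.41 with 1, since 1 KO library is at 0.

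With no filter the exon junction and cap list had 1 total RNA call in place of 4, the decay factors 0 in place of 1 and the targets 1 in place of 2, and 937 of all genes were called in place of 1799. That list had 2 under a pseudocount of 0.1 or 0.5 or quantile normalization and 1 with the chromosome median removed, where the decay factors had 0. In footprints it had 1 with a pseudocount of 0.1 or the chromosome median removed and 4 without Rn45s, and the decay factors had 1 with either pseudocount, the chromosome median removed or the fit of all 8 libraries. Over all genes, the translational efficiency count of 7 ran from 2 (pseudocount 0.1) to 12 (without Rn45s) under the settings that keep all 8 libraries. Some fits with a library left out went above that range. The cause of these shifts was not tested. Footprint depth limits Magohb, with 5 to 12 reads a library, and a filter of 5 CPM gave it no footprint value.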
